A study of Mus musculus with 6 samples.

Results

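The Nrf2 pathway genes described here are 10 protein-coding mouse genes, chosen by symbol: Nfe2l2, Keap1, Gclc, Gclm, Gsr, Txnrd1, Srxn1, Nqo1, Hmox1 and G6pdx. All 10 were found among the 56691 genes of the count files, and all 10 were among the 15662 genes with enough counts to be tested. Their transcript levels were measured by total RNA-seq in whole kidneys of 3 control mice and 3 mice injured with cisplatin, a platinum drug against tumors that damages the kidney tubule. All were male C57BL/6 mice and 9 weeks old at the start, and no engineered allele is named for them. The control mice received saline and the cisplatin group received 8 mg of cisplatin per kg body weight, in both cases by intraperitoneal injection on 4 occasions. Kidneys were taken at the end of week 7, with 1 library per kidney, so the comparison describes the chronic state left by repeated dosing and only in males.

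Nrf2, the protein that Nfe2l2 encodes, is a transcription factor that turns on genes for antioxidant defence and detoxification. In resting cells Keap1 binds Nrf2 and, with the ubiquitin ligase built on Cul3, marks it for the proteasome. Electrophiles and oxidants modify cysteines of Keap1, Nrf2 then accumulates, pairs with a small Maf protein and binds antioxidant response elements near its targets. Nrf2 activity is therefore set largely at the level of protein, which these RNA counts do not measure. In the kidney the pathway is known for its protective role in toxic and ischemic injury of the proximal tubule.

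The libraries held 21891855 to 26627554 counted read pairs, and the replicates of a group differed by more than counting noise. Of these pairs 41.1% to 48.6% came from the mitochondrial rRNA genes mt-Rnr1 and mt-Rnr2. Read pairs with no annotated exon on the transcript strand made up 4.63% to 4.86% of a control library and 6.09% to 9.32% of a cisplatin library. Levels are given as CPM, counts per 1000000 counted pairs after scaling with edgeR's TMM factors, which ran from 0.844 to 0.894 in control and from 1.05 to 1.26 in cisplatin libraries. The groups were tested with the quasi-likelihood method of edgeR, and a gene was called where the p-value, adjusted by Benjamini-Hochberg over all 15662 tested genes, was under 0.05. Log2 fold changes are cisplatin against control, with a standard error (SE) and a 95% confidence interval.

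Cisplatin left the 10 genes divided. Nqo1, Srxn1, Nfe2l2 and G6pdx rose and Gclm fell, while Keap1, Hmox1, Gclc, Txnrd1 and Gsr were not called. Of all tested genes 24.5% were called higher, against 4 of the 10 members, and 22.8% were called lower, against 1 of 10. In either direction 47.4% of all tested genes were called, close to the 5 of 10 members. The median log2 fold change was 0.19 over the members and 0.05 over all tested genes. In 6 of the 10 members every cisplatin library lay on one side of every control library, which also held for 57.8% of all tested genes. For each of these 6 the two-sided exact permutation p was 0.1, the smallest that 3 libraries against 3 can give. The number of members that responded was thus near that of the kidney's genes as a whole, and what follows describes which members they were.

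**Figure D1:**
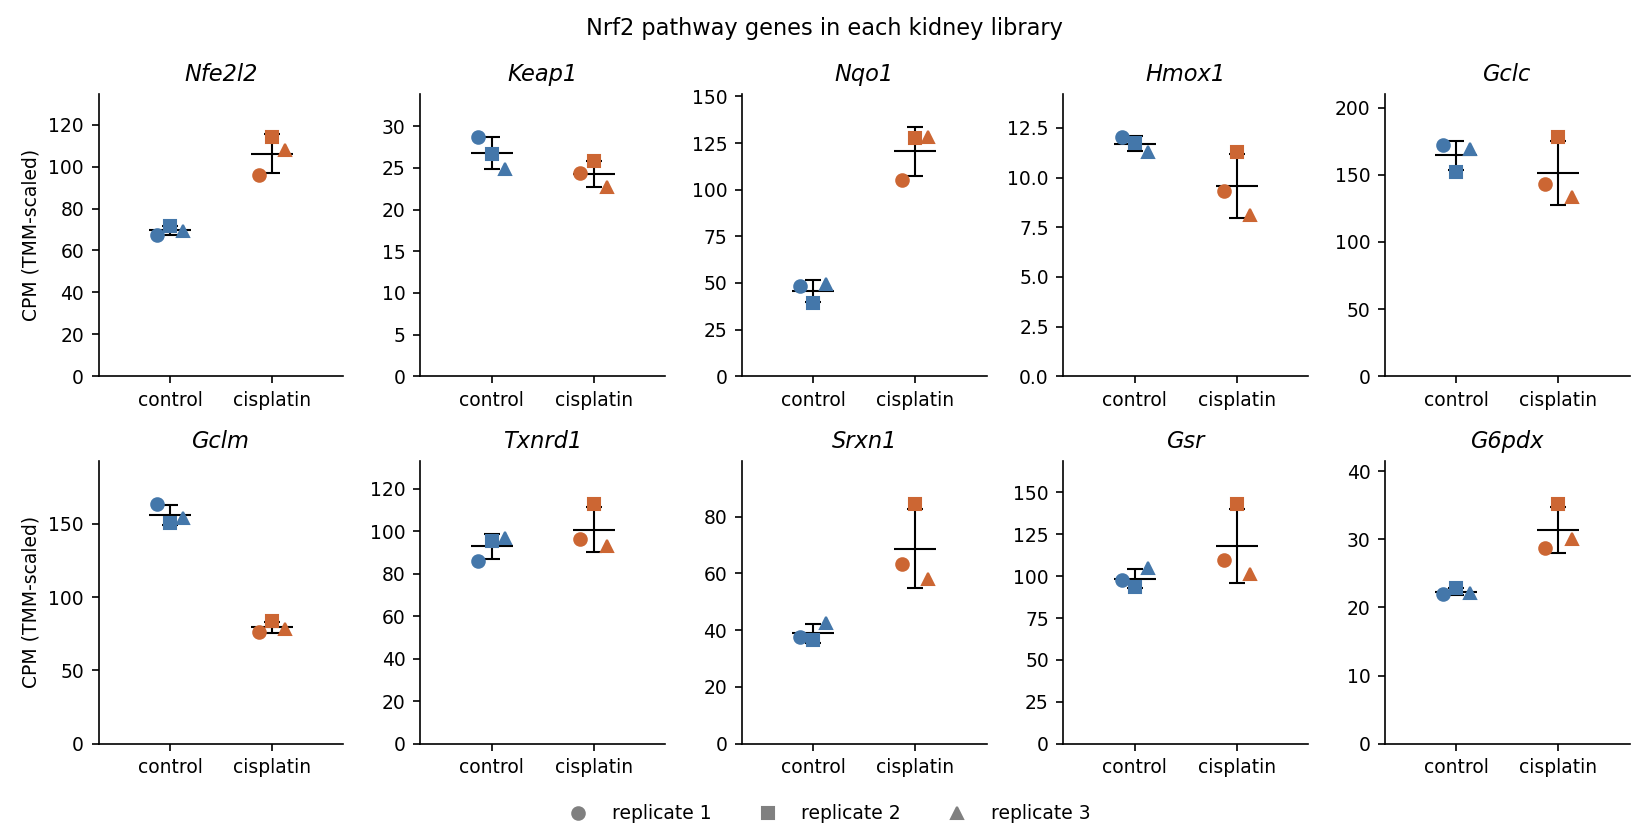
Level of each of the 10 Nrf2 pathway genes in each kidney library, in TMM-scaled CPM on axes that start at 0. Points are single libraries with the shape giving the replicate number, and black bars give the mean ± SD of 3 libraries. Nqo1, Srxn1, Nfe2l2 and G6pdx lie higher in every cisplatin library and Gclm lies lower in every one, whereas the groups overlap for Keap1, Gclc, Txnrd1 and Gsr and nearly touch for Hmox1.

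Markers of the kidney's cell types differed between the groups as well. Of 12 proximal tubule markers 11 fell and none rose, and their summed level was 32804 to 33265 CPM in control and 5204.5 to 5443.1 CPM in cisplatin libraries. The steepest fall was that of Kap, an androgen-regulated gene of the proximal tubule, so the marker sum weighs this gene heavily. Of 10 macrophage markers 9 rose and none fell, with summed levels of 77.1 to 92.1 CPM in control and 176 to 219 CPM in cisplatin libraries. Of 7 fibroblast markers 6 rose and none fell, with 204 to 252 CPM and 402 to 668 CPM. Among 5 thick ascending limb markers 2 rose and 1 fell (3155 to 3381 and 2606 to 3042 CPM), and among 9 distal tubule and collecting duct markers 2 rose and 2 fell (552 to 646 and 517 to 561 CPM). Endothelial markers (0 higher and 2 lower of 6) summed to 258 to 268 and 186 to 228 CPM, and podocyte markers (1 higher and 0 lower of 5) to 159 to 170 and 162 to 226 CPM. Lymphocyte markers were scarce at 2.31 to 2.73 and 2.88 to 3.65 CPM (1 higher of 3 tested), erythroid markers spanned 124 to 250 and 142 to 234 CPM (none called of 5 tested), and those of liver, fat and adrenal gland summed to at most 7.26 CPM, with 1 lower of 4 tested and Cyp11b2 at 0 counts in every library. These marker counts and sums rest on TMM scaling. Library totals, which moved the all-gene median of the log2 fold change from 0.05 to 0.48, would raise the smaller falls, and marker counts on that scale are not given. The part of these shifts in the levels of the 10 genes was not tested, and in whole-tissue RNA fewer cells of a type and less RNA per cell cannot be told apart.

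The reference promoters of the members were searched for the core of the antioxidant response element, TGACNNNGC, on both strands (GCNNNGTCA on the gene strand where the core lies on the other one). RefSeq windows (GRCm38.p6) of 250 bases before to 50 bases after a transcript start were at hand for 7 of the 10 members. The core was present in 5 of these 7, namely in Nfe2l2, Gclm, Srxn1, G6pdx and 1 of 3 windows of Txnrd1, and it was not found in the single windows of Keap1 and Nqo1. Counted by window, 5 of the 9 windows of these members and 12.4% of all 32851 windows held it. Hmox1, Gclc and Gsr were not searched, nor were bases beyond these windows in any member, Nqo1 included. The sites are printed because they fall in members of every kind of response, with the 9 bases that match the core in capitals and 10 flanking bases on each side, 5′ to 3′ on the gene's strand:
Nfe2l2 (higher; chr2:75704885-75704913, minus strand, core 240 to 232 bases before the start, read on the gene strand): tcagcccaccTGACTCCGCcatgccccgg
Srxn1 (higher; chr2:152105542-152105570, plus strand, core at bases 28 to 36 after the start, read on the opposite strand): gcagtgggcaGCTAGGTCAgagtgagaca
G6pdx (higher; chrX:74428919-74428947, minus strand, core 57 to 49 bases before the start, read on the opposite strand): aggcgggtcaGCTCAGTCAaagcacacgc
Gclm (lower; chr3:122245413-122245441, plus strand, core 134 to 126 bases before the start, read on the opposite strand): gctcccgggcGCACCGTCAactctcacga
Txnrd1 (not called; chr10:82859104-82859132, plus strand, core 92 to 84 bases before the start, read on the opposite strand): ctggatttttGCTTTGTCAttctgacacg
A match to these letters describes the reference sequence and is not evidence of binding in these kidneys.

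The regulator and its inhibitor came first. Nfe2l2 (ENSMUSG00000015839, GRCm39 chr2:75504739-75534985, minus strand) was at 67.6, 71.7 and 69.4 CPM in control replicates 1, 2 and 3 and at 96.2, 114 and 108 CPM in cisplatin replicates 1, 2 and 3. The cisplatin libraries all lay well above the tight control libraries. The mean rose from 69.6 ± 2.07 to 106 ± 9.23 CPM (SD, n = 3 each), a log2 fold change of 0.61 (SE 0.0904, interval 0.41 to 0.81, edgeR adjusted p = 0.000285).

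Keap1 (ENSMUSG00000003308, GRCm39 chr9:21141026-21150679, minus strand) was at 28.8, 26.7 and 24.9 CPM in the control and at 24.4, 25.8 and 22.7 CPM in the cisplatin libraries. The groups overlapped, with cisplatin replicate 2 above control replicate 3. Means were 26.8 ± 1.95 and 24.3 ± 1.55 CPM (SD, n = 3 each), with a log2 fold change of -0.14 (SE 0.0933, interval -0.35 to 0.07, edgeR adjusted p = 0.238). Genes on the opposite strand overlap 25.8% of the exon bases of Keap1, and counts that ignore the strand would lose 27.8% to 32.7% of its pairs, which is why the counts of the transcript's own strand matter for this gene.

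Because both genes were counted in the same libraries, their ratio does not depend on how libraries are scaled. There were 2.35, 2.69 and 2.79 counts of Nfe2l2 per count of Keap1 in the control and 3.95, 4.44 and 4.77 in the cisplatin libraries, so that the ratio was higher in all 3 cisplatin libraries. The mean log2 ratio was 1.38 ± 0.131 and 2.13 ± 0.138 (SD, n = 3 each), a 1.68-fold difference. Its two-sided exact permutation p was 0.1, again the smallest possible, and 0.125 after adjustment over the 5 ratios compared.

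Glutathione synthesis begins with glutamate-cysteine ligase, made of the catalytic subunit Gclc and the modifier subunit Gclm, which raises the enzyme's efficiency. The genes of the 2 subunits parted. Gclm (ENSMUSG00000028124, GRCm39 chr3:122039126-122065061, plus strand) was at 163, 151 and 154 CPM in the control and at 76.3, 83.3 and 78.1 CPM in the cisplatin libraries. Every cisplatin library was far below every control library, and the replicates of each group lay close together. The mean fell from 156 ± 6.66 to 79.3 ± 3.64 CPM (SD, n = 3 each), with a log2 fold change of -0.98 (SE 0.0850, interval -1.16 to -0.79, edgeR adjusted p = 7.75e-06).

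Gclc (ENSMUSG00000032350, GRCm39 chr9:77661797-77701770, plus strand) was at 172, 152 and 169 CPM in the control and at 143, 178 and 133 CPM in the cisplatin libraries. Cisplatin replicate 2 was the highest and replicate 3 the lowest of all 6 libraries, and the control libraries lay between them. Means were 164 ± 10.8 and 152 ± 23.8 CPM (SD, n = 3 each), and the log2 fold change was -0.12 (SE 0.117, interval -0.38 to 0.14, edgeR adjusted p = 0.430). The interval leaves room for a modest change either way, but not for one of the size seen for Gclm.

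Counts of Gclc per count of Gclm were 1.05, 1.01 and 1.10 in control kidneys, against 1.87, 2.14 and 1.71 in cisplatin-injured kidneys. The 2 transcripts were thus counted about equally in every control kidney and unequally in every cisplatin-injured kidney. The mean log2 ratio was 0.0757 ± 0.0601 and 0.925 ± 0.165 (SD, n = 3 each), a 1.80-fold difference (two-sided exact permutation p = 0.1, the smallest possible, and 0.125 after adjustment over 5 ratios).

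**Figure D2:**
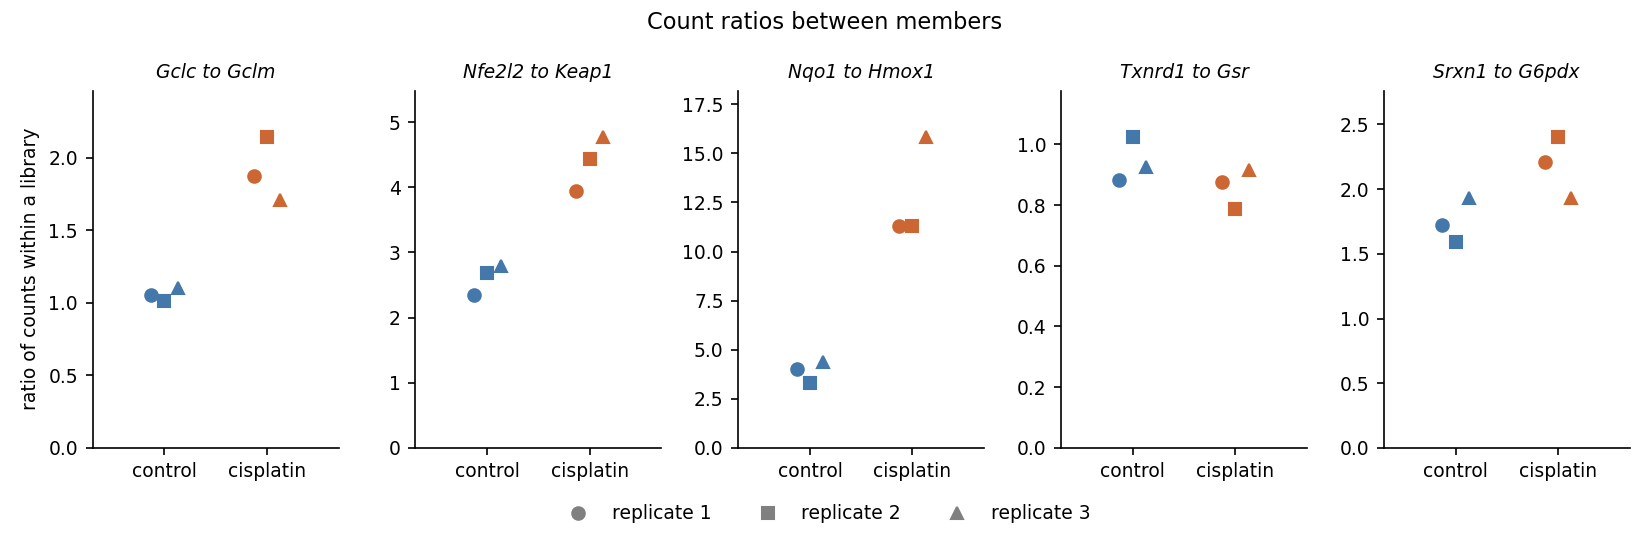
Ratios of the counts of 2 members within each library, on linear axes that start at 0, with 3 control and 3 cisplatin libraries per panel and the shape giving the replicate number. Gclc to Gclm moves from 1.01 to 1.10 in control to 1.71 to 2.14 in cisplatin libraries, and Nqo1 to Hmox1 from 3.32 to 4.37 to 11.3 to 15.8, whereas Txnrd1 to Gsr overlaps between the groups.

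Srxn1, Gsr and Txnrd1 keep thiols reduced. The product of Srxn1, sulfiredoxin, repairs peroxiredoxins whose cysteine has been over-oxidized. Srxn1 (ENSMUSG00000032802, GRCm39 chr2:151947436-151957687, plus strand) was at 37.7, 36.4 and 42.7 CPM in the control and at 63.4, 84.4 and 58.1 CPM in the cisplatin libraries. All cisplatin libraries were higher, replicate 2 the most. The mean rose from 38.9 ± 3.29 to 68.7 ± 13.9 CPM (SD, n = 3 each), with a log2 fold change of 0.82 (SE 0.135, interval 0.52 to 1.12, edgeR adjusted p = 0.000579).

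Gsr, glutathione reductase, regenerates reduced glutathione with NADPH. Gsr (ENSMUSG00000031584, GRCm39 chr8:34142551-34188192, plus strand) was at 97.7, 93.4 and 105 CPM in the control and at 110, 143 and 101 CPM in the cisplatin libraries. Replicate 2 of the cisplatin group stood above the rest, and replicate 3 lay within the control range. Means were 98.6 ± 5.70 and 118 ± 22.0 CPM (SD, n = 3 each), and the log2 fold change was 0.26 (SE 0.125, interval -0.02 to 0.54, edgeR adjusted p = 0.110). Without cisplatin replicate 3 the gene was called higher (log2 fold change 0.33, adjusted p = 0.0293).

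Txnrd1, the cytosolic thioredoxin reductase, is a selenoprotein that reduces thioredoxin with NADPH. Txnrd1 (ENSMUSG00000020250, GRCm39 chr10:82669785-82733546, plus strand) was at 86.1, 95.6 and 96.9 CPM in the control and at 96.3, 113 and 92.8 CPM in the cisplatin libraries. The groups overlapped, and again cisplatin replicate 2 was highest. Means were 92.9 ± 5.92 and 101 ± 10.6 CPM (SD, n = 3 each), with a log2 fold change of 0.12 (SE 0.0992, interval -0.10 to 0.34, edgeR adjusted p = 0.358).

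The counts of both reductases stayed near each other within libraries. Counts of Txnrd1 per count of Gsr were 0.882, 1.02 and 0.926 in the control and 0.876, 0.788 and 0.917 in the cisplatin libraries. The difference in mean log2 ratio was -0.13 (-0.0859 ± 0.110 and -0.220 ± 0.112, SD, n = 3 each), which the two-sided exact permutation test did not separate (p = 0.2, also 0.2 after adjustment).

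Nqo1 and Hmox1 are both widely used as readouts of Nrf2, and they did not move together. Nqo1, NAD(P)H quinone dehydrogenase, reduces quinones by a pair of electrons and so avoids reactive semiquinones. Nqo1 (ENSMUSG00000003849, GRCm39 chr8:108113835-108129934, minus strand) was at 48.3, 39.0 and 49.4 CPM in the control and at 105, 128 and 128 CPM in the cisplatin libraries. Every cisplatin library stood far above the highest control library. The mean rose from 45.6 ± 5.75 to 121 ± 13.2 CPM (SD, n = 3 each), with a log2 fold change of 1.40 (SE 0.118, interval 1.14 to 1.66, edgeR adjusted p = 6.15e-06), the largest of the 10 members.

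Hmox1, heme oxygenase 1, breaks down heme and also answers to regulators other than Nrf2, with Bach1 as a known repressor. Hmox1 (ENSMUSG00000005413, GRCm39 chr8:75820241-75827217, plus strand) was at 12.1, 11.7 and 11.3 CPM in the control and at 9.33, 11.3 and 8.11 CPM in the cisplatin libraries. The cisplatin libraries lay below the control libraries, but replicate 2 equalled control replicate 3 to 3 digits. Means were 11.7 ± 0.383 and 9.58 ± 1.60 CPM (SD, n = 3 each), with a log2 fold change of -0.28 (SE 0.129, interval -0.57 to 0.00, edgeR adjusted p = 0.0930). Leaving out cisplatin replicate 2 turned this into a call (log2 fold change -0.42, adjusted p = 0.0253). With 186 to 337 counts per library, Hmox1 had the fewest counts of the 10 genes.

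Counts of Nqo1 per count of Hmox1 were 4.003, 3.32 and 4.37 in the control and 11.3, 11.3 and 15.8 in the cisplatin libraries. The ratio separated the groups without overlap and by a wide gap. The mean log2 ratio was 1.95 ± 0.203 and 3.66 ± 0.281 (SD, n = 3 each), a 3.26-fold difference (two-sided exact permutation p = 0.1, the smallest possible, and 0.125 after adjustment over 5 ratios).

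G6pdx, glucose-6-phosphate dehydrogenase, opens the pentose phosphate pathway and supplies the NADPH that Gsr, Txnrd1 and Nqo1 use. G6pdx (ENSMUSG00000031400, GRCm39 chrX:73449857-73472819, minus strand) was at 21.9, 22.9 and 22.1 CPM in the control and at 28.7, 35.2 and 30.1 CPM in the cisplatin libraries. The cisplatin libraries were all higher, and the control libraries hardly varied. The mean rose from 22.3 ± 0.519 to 31.3 ± 3.40 CPM (SD, n = 3 each), with a log2 fold change of 0.49 (SE 0.0976, interval 0.27 to 0.71, edgeR adjusted p = 0.00195). Ikbkg on the opposite strand overlaps 8.13% of the exon bases of G6pdx. Counts that ignore the strand would lose 10.9% to 15.4% of its pairs, and with them G6pdx was still called higher (0.52, edgeR adjusted p = 0.00149). Counts of Srxn1 per count of G6pdx were 1.72, 1.59 and 1.93 in the control and 2.21, 2.40 and 1.93 in the cisplatin libraries. The groups nearly met at control replicate 3 and cisplatin replicate 3. The mean log2 ratio was 0.801 ± 0.139 and 1.12 ± 0.159 (SD, n = 3 each), a 1.25-fold difference (two-sided exact permutation p = 0.1, adjusted 0.125).

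**Figure D3:**
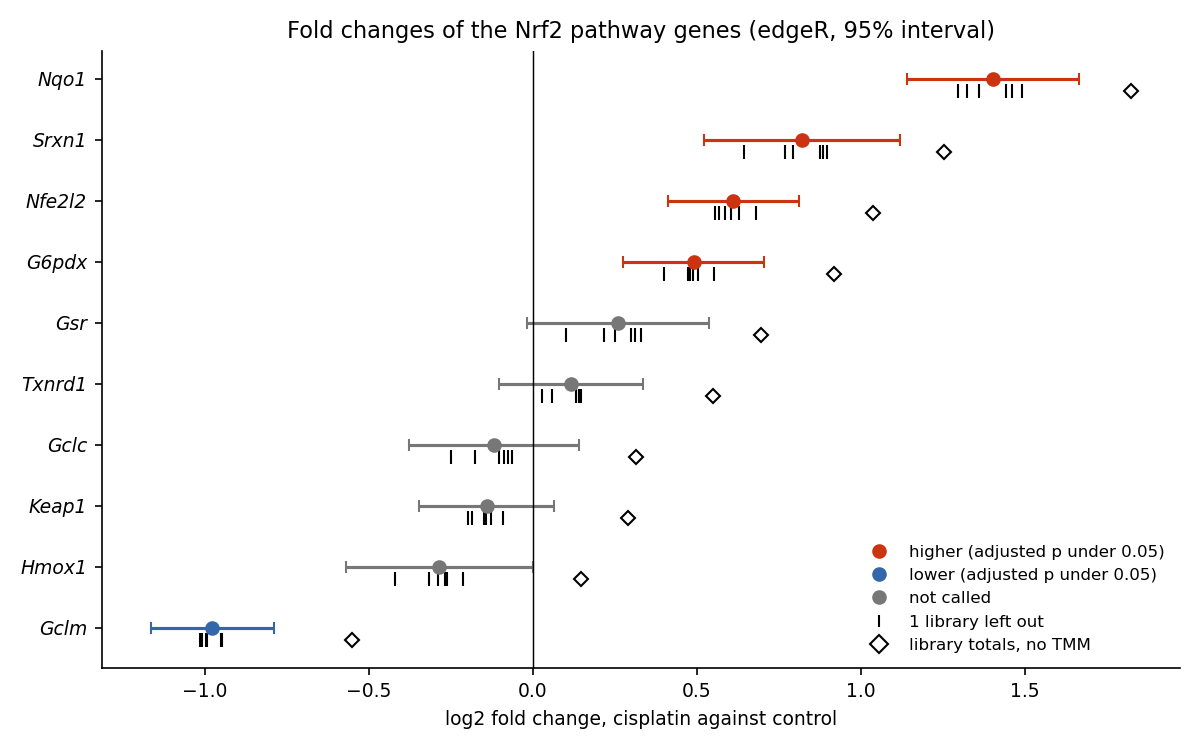
Log2 fold change of each member, cisplatin against control, with its 95% interval from edgeR (circles), the values with 1 library left out (ticks) and the value when libraries are scaled by their totals alone (diamonds). Nqo1 at 1.40, Srxn1 at 0.82, Nfe2l2 at 0.61 and G6pdx at 0.49 lie above 0 and Gclm at -0.98 below it under all of these, whereas with library totals Keap1, Hmox1 and Gclc move from below to above 0.

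The calls for these 5 genes did not hinge on a single choice. Nqo1, Srxn1, Nfe2l2, G6pdx and Gclm were called in the same direction in all 16 alternatives tried, among them the removal of each library in turn. Scaling mattered for the rest. With library totals and no TMM factors, the all-gene median of the log2 fold change moved from 0.05 to 0.48, and the values of Keap1, Hmox1 and Gclc turned positive (0.29, 0.15 and 0.31, none called). On that scale Txnrd1 and Gsr were called higher (0.55 and 0.69), little above the shifted median of all genes.

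Levels were compared between members as CPM per kilobase of exon. In control kidneys Gclc was highest at 26.2, followed by Gclm at 19.6 and Nqo1 at 16.6, then Gsr at 14.2, Txnrd1 at 13.1 and Nfe2l2 at 12.7. Well below these were Hmox1 at 6.65, Keap1 at 4.70, Srxn1 at 4.15 and G6pdx at 3.45. The ranges over libraries overlapped between Nqo1 and Gsr, Gsr and Txnrd1, Txnrd1 and Nfe2l2, and Keap1 and Srxn1. Such ranges do not pair genes within a library. Within every control library Nqo1 lay above Gsr, whereas the order of the other overlapping pairs changed between libraries.

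In cisplatin-injured kidneys Nqo1 headed the members at 43.9 CPM per kilobase, ahead of Gclc at 24.2, Nfe2l2 at 19.5, Gsr at 17.0 and Txnrd1 at 14.2. Gclm came sixth at 9.96, above Srxn1 at 7.31, Hmox1 at 5.45, G6pdx at 4.84 and Keap1 at 4.27. By rank Nqo1 moved from 3 to 1, Nfe2l2 from 6 to 3 and Srxn1 from 9 to 7, while Gclm moved from 2 to 6. Neighbours whose ranges overlapped were Nfe2l2 and Gsr, Gsr and Txnrd1, Srxn1 and Hmox1, Hmox1 and G6pdx, and G6pdx and Keap1. Within each cisplatin library these pairs kept their order, except Hmox1 and G6pdx, which changed places in replicate 3. The order depends on the exon length used. With the length of the canonical transcript Nfe2l2 ranked 5 in both groups, while Gclm moved from 4 to 6, Nqo1 from 6 to 1 and Srxn1 from 9 to 7. By that length Nqo1 at 45.1, Gsr at 44.2 and Gclc at 44.0 CPM per kilobase overlapped in cisplatin-injured kidneys and were not told apart. Nqo1 thus had the highest mean in the injured kidney by both lengths, but stood apart from Gsr and Gclc only by the merged exon length.

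The cisplatin-injured kidneys also differed among themselves. Replicate 2 was the highest of the 3 cisplatin libraries for 9 of the 10 members, the exception being Nqo1, for which replicate 3 was higher by a hair. Among all tested genes this library was highest for 26.2%, and among 52 other genes of the pathway for 18. The excess of replicate 2 over the mean of its group was largest for Srxn1 at 0.30 on the log2 scale, Gsr at 0.28, Hmox1 at 0.24 and Gclc at 0.24. With DESeq2 size factors, upper-quartile factors or library totals the count was again 9 of 10. With library totals the exception was Keap1, highest in replicate 1, and Nqo1 was highest in replicate 2. On the log2 scale 8 of the 10 members varied more among cisplatin than among control libraries, against 67.8% of the 15566 tested genes with counts in every library.

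**Figure D4:**
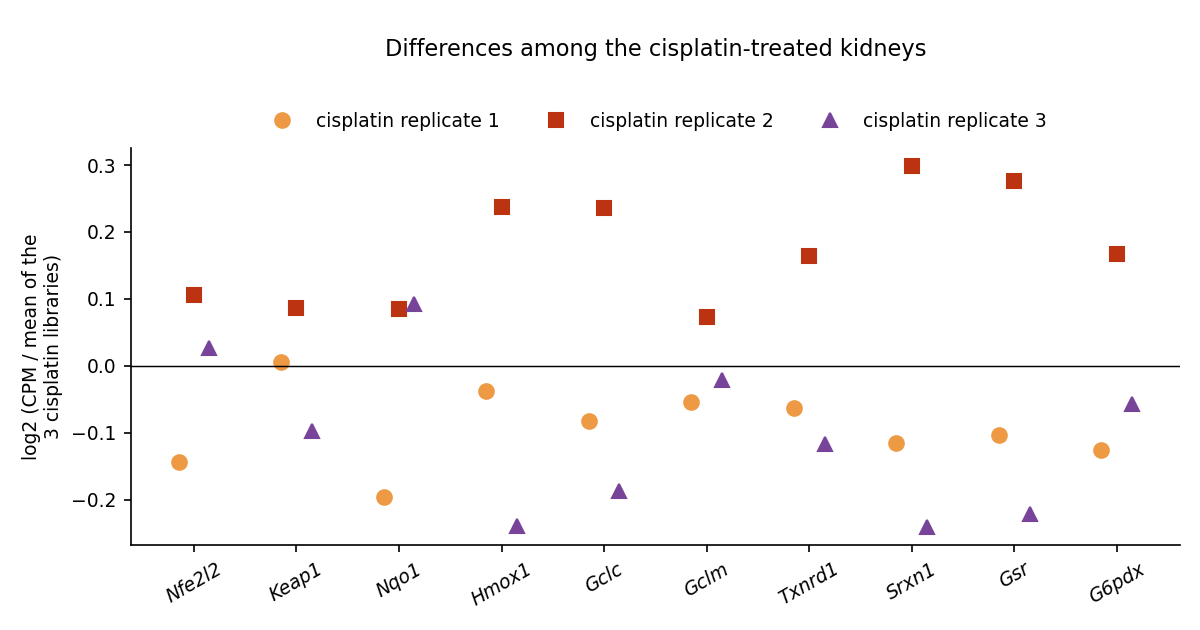
Level of each member in each of the 3 cisplatin libraries, as the log2 of its CPM over the mean of the 3. Replicate 2 (squares) is highest for 9 of the 10 genes, with Nqo1 the exception, and reaches 0.30 for Srxn1.

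Beyond the 10 genes, 56 more of the pathway were listed by their known roles, and 52 of them had enough counts. The lists were drawn up with earlier results of these data known, so their shares are descriptions and no list was tested. Of these 21 rose (40.4%), 14 fell (26.9%) and 17 were not called, and the median change was 0.16 on the log2 scale. Of all tested genes 24.5% rose and 22.8% fell, and the counts of each list below stand beside these shares. With library totals 33 of the 52 were called higher and 3 lower, beside 8508 and 1375 of all 15662 tested genes. The library-totals counts of the lists below stand beside the same all-gene numbers. On that scale 5 of the 14 genes that fell turned to values at or just above 0, namely Cul3 (0.11), Prdx6 (0.02), Taldo1, Ftl1 (0.01 each) and Esd (0.00), none of them called.

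Among 17 partners and regulators of Nrf2, 3 rose and 3 fell (17.6% each, and 10 and 0 genes with library totals), and the median was -0.12. Both shares were below those of all tested genes. Maff, a small Maf protein that can pair with Nrf2, rose from 1.40 ± 0.262 to 4.09 ± 0.578 CPM (SD, n = 3 each), by 1.53 on the log2 scale (SE 0.199, edgeR adjusted p = 0.000119). Nfe2l3, a relative of Nrf2, rose by a log2 fold change of 1.45, from 7 to 16 counts per control library to 31 to 49 per cisplatin library. Nfe2l1, another relative, was called higher at 0.27 but kept the call in only 1 of the 6 fits that left out a library, the one without cisplatin replicate 3 (adjusted p up to 0.146 in the others). Bach2, a repressor that competes for the same elements, fell (log2 fold change -1.20), as did Sqstm1, the autophagy adaptor that draws Keap1 away from Nrf2 (-0.44). Cul3, the scaffold of the ligase that Keap1 serves, was called lower at -0.32, but not without control replicate 2, control replicate 3 or cisplatin replicate 2 (adjusted p up to 0.0698). Bach1, Mafg and Mafk were not called, at 0.16, -0.17 and -0.13.

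Genes of glutathione supply and conjugation moved mostly upward, with 7 higher and 1 lower of 9 tested (77.8% and 11.1%) and a median of 0.98. Gsta4, which conjugates the lipid peroxidation product 4-hydroxynonenal, was at 11.7, 14.9 and 15.7 CPM in control and at 102, 149 and 116 CPM in cisplatin libraries. Gsta1 went from 1, 0 and 1 counts to 89, 83 and 79 counts, too few in the control libraries for a fold. Gsta2, Mgst1 and Gsta3 rose as well, by 1.86, 1.55 and 0.98 on the log2 scale, while Gstm1 and Gstm2 were called higher at 0.33 and 0.31 and lost the call without control replicate 1 (adjusted p = 0.0681 and 0.0878), Gstm1 also without control replicate 2 and Gstm2 also without control replicate 3 or cisplatin replicate 2. The only gene of the list to fall was Gss, glutathione synthetase, which acts directly after the ligase that Gclc and Gclm form (233 ± 10.7 in control and 115 ± 13.7 CPM in cisplatin, SD, n = 3 each, with a log2 fold change of -1.02, SE 0.104, edgeR adjusted p = 2.25e-05). Gstp1 was not called at 0.08. Slc7a11, the cystine transporter, had too few counts for the test, with 2 to 5 per control and 8 to 28 per cisplatin library. Near-identical copies within the Gsta and Gstm families can share reads, so single values in them are uncertain.

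The suppliers of NADPH beside G6pdx went both ways, with 2 higher and 2 lower of 5 (3 and 1 with library totals) and a median of 0.17. Me1, malic enzyme, was at 235, 240 and 206 CPM in control and at 48.2, 44.2 and 46.5 CPM in cisplatin libraries, the deepest fall among the listed pathway genes (log2 fold change -2.29, SE 0.0966, edgeR adjusted p = 6.22e-08). Taldo1, transaldolase, fell by 0.41 on the log2 scale. Pgd, the dehydrogenase that follows G6pdx, and Tkt, transketolase, were called higher at 0.59 and 0.35. Neither call survived every omission of 1 library, with Pgd lost without control replicate 2, cisplatin replicate 1 or cisplatin replicate 2 (adjusted p up to 0.0777) and Tkt without control replicate 1, control replicate 3 or cisplatin replicate 2 (up to 0.0929).

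The 3 genes of the thioredoxin and peroxiredoxin list, which include substrates of Txnrd1 and Srxn1, all fell, though only Prdx1 was called with library totals. Prdx1 fell from 585 ± 49.1 to 306 ± 29.4 CPM (SD, n = 3 each), which is -0.94 on the log2 scale (SE 0.110, edgeR adjusted p = 5.81e-05). Txn1, thioredoxin, and Prdx6 had log2 fold changes of -0.43 and -0.40. The median of the list was -0.43. Prdx1, Txn1 and the ferritin genes have processed pseudogenes in the mouse genome, and pairs that map to several places, 11.5% to 12.9% of a library, were not counted.

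Quinone, carbonyl and drug metabolism, the list nearest to Nqo1 in function, had 5 higher and 3 lower of 9 tested (5 and 0 with library totals) and a median of 1.28. Cbr3 and Cbr1, carbonyl reductases, and Ephx1, microsomal epoxide hydrolase, rose by 5.18, 3.43 and 2.97 on the log2 scale, each more than Nqo1. The fold of Cbr3 rests on only 13 to 23 counts per control library. Ugt1a6a, a glucuronosyltransferase that shares its last exons with other genes of its cluster, was at 0.529 to 0.633 CPM in control and 1.69 to 1.71 CPM in cisplatin libraries. Aox1 was called higher at 0.93 but lost the call when any one of the control libraries or cisplatin replicate 1 was left out (adjusted p up to 0.111). Osgin1, Ptgr1 and Esd were called lower at -0.81, -0.50 and -0.41, of which Osgin1 lost the call without control replicate 1 or 2 (adjusted p = 0.0676 and 0.0580) and Esd without control replicate 1, control replicate 3 or cisplatin replicate 2 (up to 0.0549). Akr1b8, chosen for mention after its values were seen, was at 1.64 and 1.85 CPM in control replicates 1 and 2 but at 27.5 CPM in control replicate 3, against 9.99, 38.8 and 25.5 CPM in the cisplatin libraries. It was not called (log2 fold change 1.28, adjusted p = 0.219), but was called higher without control replicate 3 (3.82, adjusted p = 0.000420) and also with the replicate number as a block (1.84, adjusted p = 0.0177). The median of this list is the value of Akr1b8 itself, whose interval was wide at -0.53 to 3.08.

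Heme, iron and efflux genes had 4 higher and 2 lower of 9 (7 and 0 with library totals) and a median of 0.22. The exporters of conjugates and drugs rose, with Abcc3 from 1.31 ± 0.505 to 13.3 ± 3.12 CPM (SD, n = 3 each, 3.33 on the log2 scale, SE 0.254, edgeR adjusted p = 3.15e-06), Abcc4 at 1.71 and Abcc1 at 1.02. Abcc2 was called higher at 0.30 and lost the call when any one of the control libraries or cisplatin replicate 2 was left out (adjusted p up to 0.103). The ferritin genes Fth1 and Ftl1 were called lower at -0.58 and -0.41, neither of them with library totals, and Ftl1 was not called without control replicate 1 or 3 (adjusted p = 0.0595 and 0.0531). Blvra, biliverdin reductase, which acts after Hmox1, was not called at -0.17, but was called lower without cisplatin replicate 3 (-0.34, adjusted p = 0.0106).

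**Figure D5:**
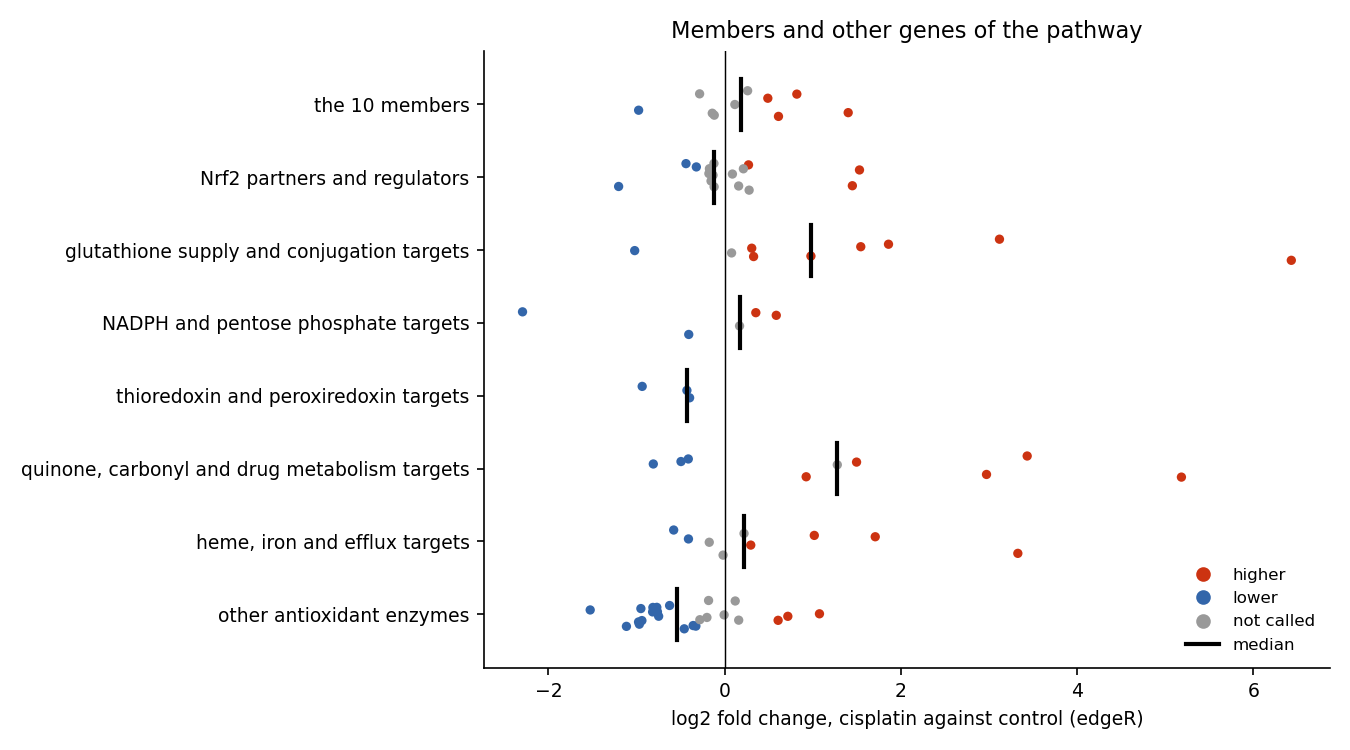
Log2 fold change, cisplatin against control, of the 10 members, of 52 other tested genes of the pathway in 6 lists and of 24 other antioxidant enzymes, with 1 point per gene colored by its call and the median of each list as a bar. The medians are 0.98 for glutathione and 1.28 for quinone and carbonyl genes, -0.43 for thioredoxin and peroxiredoxin genes and -0.54 for the other antioxidant enzymes. The median of 1.28 is the value of Akr1b8, which was not called. The point farthest to the right is Gsta1, whose fold rests on 2 control counts.

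Antioxidant enzymes that are not classed here as Nrf2 targets were listed for comparison. Of 24 such genes, 3 rose and 15 fell (6 and 9 with library totals), and the median was -0.54. Sod1 and Sod2, the cytosolic and mitochondrial superoxide dismutases, fell by 1.11 and 0.98 on the log2 scale, and Msrb1, a methionine sulfoxide reductase, fell by 1.53. Gpx7, Gpx8 and Msrb3 rose, with log2 fold changes of 1.08, 0.72 and 0.61. Against this background Nqo1, Srxn1 and G6pdx stand among the enzymes that rose, and Gclm among those that fell. The difference between the lists was not tested.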

How the data were processed

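Total RNA of 6 mouse kidneys (3 control, 3 cisplatin, grouped by the labels) was made into stranded libraries. Per the labels, the authors trimmed read pairs with cutadapt and aligned them to mm39 with STAR, and the deposited values are STAR's raw counts per gene without normalization. For STAR's settings and the annotation release, the sources used here give nothing. Counts on the transcript strand (96.7% to 97.2% of the stranded counts) were taken. STAR's summary rows (21.2% to 25.9% of pairs) were left out of library sizes.

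Symbols, positions and lengths were taken from GENCODE vM39, which named 56017 of 56691 genes by identifier without version. Genes were filtered with filterByExpr (minimum count 10, minimum total 15) and tested with edgeR 4.0.16 (TMM, quasi-likelihood F test, no block), with Benjamini-Hochberg adjustment over 15662 genes at 0.05. The SE of a fold change is its size over the square root of F. Named genes are the 10 members and, per list, up to 3 genes called in each direction with the smallest adjusted p, and further list members were named after their values were seen. The members and lists were chosen with earlier results of these data known. The study's methods name DESeq2, which was an alternative here (1.42.0), as were limma-voom (limma 3.58.1), other scalings and filters, counts that ignore strand, a fit without mitochondrial and the 20 highest genes, each library left out and a block on replicate number. That replicate 2 was highest among cisplatin libraries was noticed in the data, and its check under other scalings was added afterwards.

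Same-numbered control and cisplatin libraries deviated together from their group means (correlations 0.189, 0.215 and 0.253), which no label explains. Each library is 1 mouse. Other tools were matplotlib 3.10.9, numpy 2.4.6, pandas 2.3.3, Python 3.11.15, R 4.3.3 and scipy 1.17.1. Promoter windows come from RefSeq.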

Additional observations from a re-analysis of the deposited data

How the results depend on the processing

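Nfe2l2, Nqo1, Srxn1 and G6pdx were called higher and Gclm lower in all 16 alternatives, with log2 fold changes of 0.56 to 1.04, 1.30 to 1.82, 0.64 to 1.25, 0.40 to 0.92 and -1.01 to -0.55. With library totals, which moved the median of all tested genes from 0.05 to 0.48, 8508 genes were called higher and 1375 lower (3841 and 3578 with TMM, 4774 and 2890 with upper-quartile factors), 33 of the pathway genes were called higher and 3 lower, and Keap1 (0.29, adjusted p = 0.0775), Hmox1 (0.15, 0.452) and Gclc (0.31, 0.0826) turned positive. Txnrd1 (0.55, 0.00354) and Gsr (0.69, 0.00428) were then called, as was Gsr with upper-quartile factors (0.35, 0.0375). Leaving out 1 library each time, 1 to 2 members were called lower, the second being Hmox1 without cisplatin replicate 2, and Gsr was called without cisplatin replicate 3. With the replicate number as a block, which pairs same-numbered libraries, 4087 genes were called higher and 3796 lower, again with 4 members higher and 1 lower, and no call of a member changed. For the 5 ratios, the difference in mean log2 ratio kept its direction in all 40 recomputed values. Each value stayed within 1 SD of the main one, by the larger of the SDs of the 2 groups. The cause of these shifts was not tested. With 3 kidneys per group the exact test cannot pass 0.1, and the intervals of the members that were not called leave smaller changes undetected. The replicates differed by more than counting noise, so the spread between 3 kidneys limits these intervals.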
